A study of Mus musculus with 25 samples.

Results

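The cystatin cluster of mouse chromosome 2 was followed in sperm RNA through 7 of its genes, namely Cst3, Cst8, Cst9, Cst11, Cst12, Cst13 and 9230104L09Rik. They were chosen by gene symbol, as the widely expressed Cst3 together with genes of the cluster known from the male reproductive tract, out of 24358 genes in the deposited table. All 7 were found, and the estimate had succeeded for each of them in every condition. Sperm that swam out of the cauda epididymis was taken from males aged 14 weeks, and all-RNA-seq, a protocol in which RNA ends are treated so that RNAs of all types are read, was applied to its RNA. The 5 conditions held 5 libraries each. Sons of C57BL/6J and FVB/N females given corn oil vehicle are called vehicle C57BL/6J (C57.CTL.F1 on the plots) and vehicle FVB/N (FVB.CTL.F1). Sons of females given 300 mg/kg/day di(2-ethylhexyl)phthalate (DEHP), a plasticizer that interferes with sex hormone signalling, by mouth from embryonic day 9 to 19 are called exposed C57BL/6J (C57.D300.F1) and exposed FVB/N (FVB.D300.F1). These 4 conditions are the first generation. The second generation of the exposed C57BL/6J lineage, obtained through exposed first-generation males, is called second-generation C57BL/6J (C57.D300.F2). No second-generation vehicle group and no second-generation FVB/N group entered the comparisons.

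Cystatins are small inhibitors of papain-like cysteine proteases, the class to which the lysosomal cathepsins belong. The secreted type 2 cystatins arose by gene duplication and lie side by side in the genome. Cst3 encodes cystatin C, which most tissues secrete and which binds cathepsins tightly. Cst8 encodes CRES (cystatin-related epididymal spermatogenic), the founder of a subgroup that also holds Cst11 and Cst12. Members of this subgroup lack part of the conserved sites for protease binding, and the epididymal epithelium secretes them into the duct lumen. Cst8 is in addition made by germ cells of the testis and found in the sperm acrosome. Cst9 encodes testatin, known from the fetal testis, and Cst13 encodes a cystatin known from the testis. The gene 9230104L09Rik encodes a further cystatin-like protein and carries only a clone name.

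The table gives 1 estimated fragment count for each gene and condition, which the authors obtained with Cuffdiff from the 5 libraries together, and a variance of that count under the Cuffdiff model. Hereafter a count is this estimated count, and the model SD is the square root of that variance. Since the 5 libraries are combined in each value, there is no replicate check, no test between conditions was possible and no p-value is given. The summed count lay between 6921688 (second-generation C57BL/6J) and 8602900 (vehicle C57BL/6J). The limit of detection was set at 3 counts and covers counting error only. A log2 ratio was taken after 1 was added to each count, and this understates the ratio of low counts. A gene was counted as higher or lower at 2 log2 units or more, provided that it had at least 10 counts in a compared condition. The 10 libraries of vehicle C57BL/6J and exposed C57BL/6J are labelled as re-analysed and the other 15 are not. A comparison of either of these conditions with second-generation C57BL/6J or with FVB/N therefore cannot be told apart from a difference between both sets of libraries. RNA markers of spermatids and sperm were present in every condition, with summed counts of 10 genes from 92409 in vehicle C57BL/6J down to 7898 in vehicle FVB/N. Markers of liver and of seminal vesicle also differed widely between conditions, with medians of -7.62 log2 units in vehicle FVB/N against vehicle C57BL/6J for 6 liver genes and of -11.06 in exposed C57BL/6J against vehicle C57BL/6J for 7 seminal vesicle genes. In such bulk samples, fewer cells of a type and less RNA per cell cannot be told apart.

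The 7 genes lie within 107 kb of chromosome 2 (GRCm38, GENCODE M21) and all are annotated as protein coding. The outermost is Cst11, on the minus strand from 148768609 to 148771497. It is followed on the plus strand by Cst12 (148789361 to 148793546), Cst8 (148798785 to 148805595), Cst13 (148820081 to 148830410) and Cst9 (148835147 to 148838738). Both last genes of the cluster, 9230104L09Rik (148846711 to 148865038) and Cst3 (148871722 to 148875692), are again on the minus strand. Their merged exons span between 615 bases for Cst11 and 1266 bases for Cst3. Of all stretches of 18 bases in their exons, between 0.313% for Cst12 and 1.52% for Cst3 also occurred in exons of another gene. Within the cluster, Cst9 and 9230104L09Rik shared 3 such stretches.

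RefSeq promoters of 300 bases (250 before and 50 after the start, GRCm38.p6) were found for 5 of the 7 genes, and those of Cst12, Cst8 and Cst3 are shown because Cst12 and Cst8 were higher in exposed FVB/N while Cst3 stayed close to its vehicle level. Each is printed 5′ to 3′ on the strand of its gene, with capitals for the hexamers AGAACA (an androgen receptor core) and GGAAGT (an ETS family core). The windows are chr2:148789115-148789414 on the plus strand for Cst12, chr2:148798589-148798888 on the plus strand for Cst8 and chr2:148875463-148875762 on the minus strand for Cst3.
Cst12: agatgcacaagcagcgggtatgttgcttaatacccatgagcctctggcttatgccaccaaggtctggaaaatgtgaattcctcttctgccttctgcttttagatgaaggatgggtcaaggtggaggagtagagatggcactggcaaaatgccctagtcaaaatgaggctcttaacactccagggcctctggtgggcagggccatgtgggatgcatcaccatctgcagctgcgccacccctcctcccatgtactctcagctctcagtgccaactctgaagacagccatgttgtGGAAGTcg
Cst8: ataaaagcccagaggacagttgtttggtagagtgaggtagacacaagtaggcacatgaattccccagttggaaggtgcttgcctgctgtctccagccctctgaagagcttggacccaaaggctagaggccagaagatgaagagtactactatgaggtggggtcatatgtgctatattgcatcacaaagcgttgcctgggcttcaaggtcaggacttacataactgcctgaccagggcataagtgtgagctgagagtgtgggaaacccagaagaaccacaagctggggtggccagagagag
Cst3: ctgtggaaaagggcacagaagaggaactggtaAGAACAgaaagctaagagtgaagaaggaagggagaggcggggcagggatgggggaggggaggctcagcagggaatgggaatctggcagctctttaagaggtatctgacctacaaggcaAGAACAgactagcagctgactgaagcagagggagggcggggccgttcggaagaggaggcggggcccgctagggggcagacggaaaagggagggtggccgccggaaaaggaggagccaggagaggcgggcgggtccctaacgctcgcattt
The Cst3 window had the most CG dinucleotides, 13 with a GC content of 60.3%, as is common for broadly expressed genes. Cst8 had 1 CG and Cst12 had 3, against a median of 7 over all 32851 RefSeq promoters. A window with at most 1 CG made up 14.1% of all promoters. The search used 6 motifs on both strands. Besides the androgen receptor and ETS cores given above, these were the TATA box, searched as TATAAA and present in 13.6% of all promoters, and the CCAAT box, present in 37.4%. The forkhead motif was searched as TGTTTAC and is present in 3.65% of them. The CEBP motif was searched as TTGCGCAA and is present in 0.183%. Cst3 held AGAACA at positions -218 to -213 and -100 to -95, counted from the start site, and 19.0% of all promoters hold this motif. Cst12 held GGAAGT at 43 to 48, a motif present in 23.8% of all promoters. None of the 6 was in the Cst8 window. In the other windows, Cst13 held TATAAA on the opposite strand at -208 to -203 and GGAAGT at -8 to -3, and Cst9 held none. A match of so short a motif describes the letters and is not a binding site.

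In the conditions other than exposed FVB/N, the summed count of these 7 genes was almost entirely that of Cst3. Cst3 made up 93.7% of the summed count of the 7 genes in vehicle C57BL/6J, 94.9% in exposed C57BL/6J, 97.5% in second-generation C57BL/6J and 98.9% in vehicle FVB/N. In exposed FVB/N its share was 42.3%, although its count there was the highest of all. The summed count of the other 6 genes was 69.1 in vehicle C57BL/6J, 67.7 in exposed C57BL/6J, 38.04 in second-generation C57BL/6J and 20.1 in vehicle FVB/N, and it was 2562 in exposed FVB/N. At least 10 counts were reached by Cst3 and Cst8 in the C57BL/6J conditions, by Cst3 alone in vehicle FVB/N, and by 5 genes in exposed FVB/N.

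**Figure D1:**
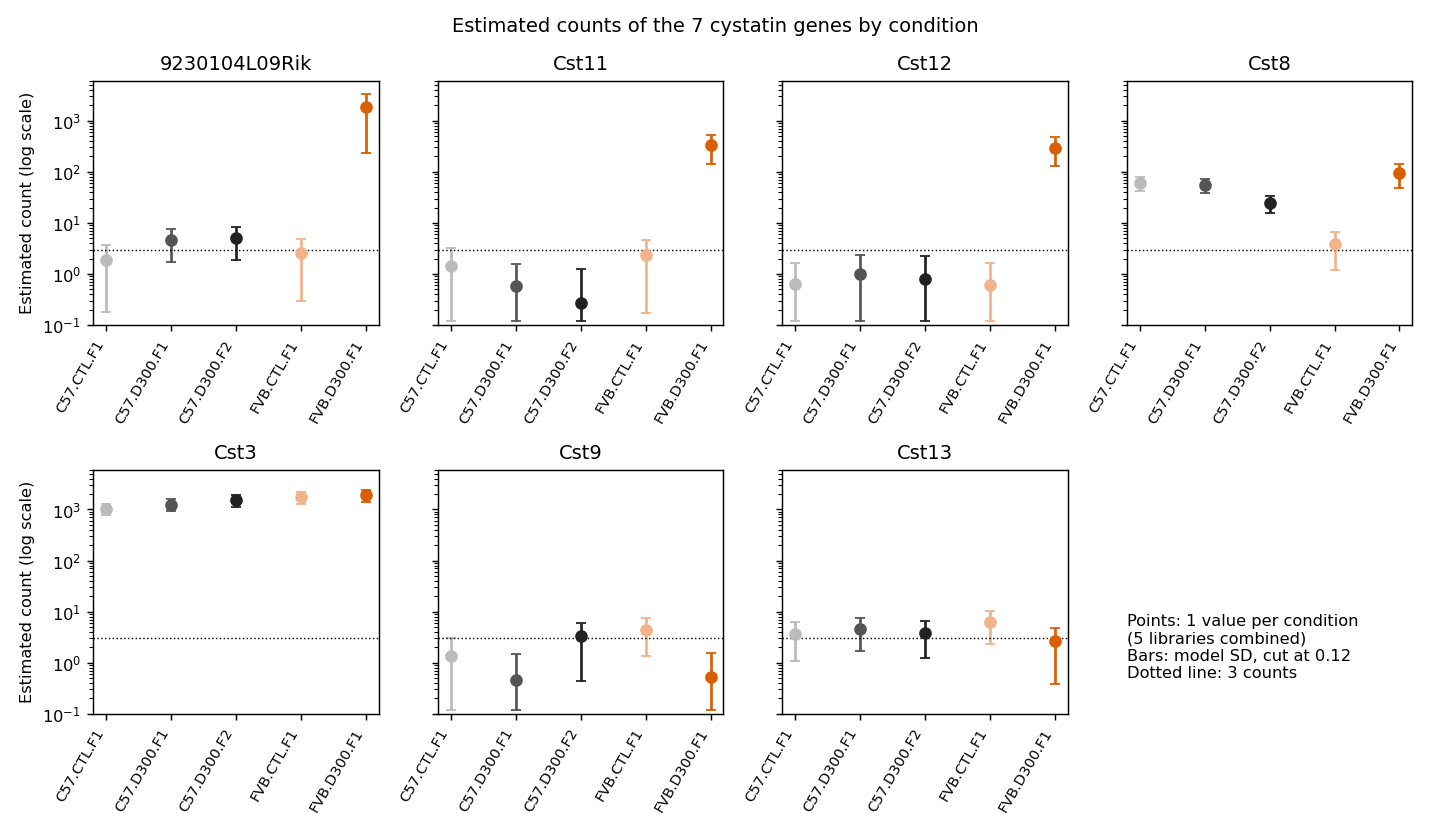
Estimated count of each cystatin gene (log axis) in the 5 conditions, with 1 point per condition that combines 5 libraries. Bars are the model SD, cut at the lower axis where they reach 0, and the dotted line marks 3 counts. 9230104L09Rik, Cst11 and Cst12 stand at 1827, 337 and 299 counts in exposed FVB/N and under 6 elsewhere, while Cst3 lies between 1021 and 1881 throughout.

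Per kilobase of merged exon, Cst3 led in 4 conditions, with 806 counts per kb in vehicle C57BL/6J and 1396 in vehicle FVB/N. Cst8 came next in the C57BL/6J conditions, with 70.4, 66.0 and 28.9 counts per kb in vehicle C57BL/6J, exposed C57BL/6J and second-generation C57BL/6J. In exposed FVB/N the order was 9230104L09Rik with 2028 counts per kb, Cst3 with 1485, Cst11 with 548, Cst12 with 457 and Cst8 with 111. With the length of the longest transcript in place of the merged exons, 9230104L09Rik stood at 2764 and Cst3 at 2187 counts per kb in that condition. The model SD of 9230104L09Rik was 1591 counts on a count of 1827, so its place above Cst3 lies within that error.

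Prenatal DEHP in FVB/N was accompanied by higher counts of 4 cystatin genes, 9230104L09Rik, Cst12, Cst11 and Cst8. The 5 genes with at least 10 counts in exposed FVB/N or vehicle FVB/N thus divided into these 4 and Cst3, and 0.662% of all 16471 genes compared were higher (109 genes). All 4 passed the minimum count only through the exposed condition, so that each of them had to differ, and the count is given as a description. Over the 5 cystatins compared the median log2 ratio was 6.63, against 0.00460 over all genes compared. Over all 7, with Cst9 and Cst13 under the minimum count, it was 4.30, the value of Cst8. None of the 7 was lower by 2 log2 units, while 3 genes in the whole table were (0.0182%).

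9230104L09Rik had 2.53 counts in vehicle FVB/N and 1827 in exposed FVB/N. The paper had already listed it among the RNAs that rose in exposed FVB/N, from these same libraries. In C57BL/6J it had 1.92 counts in vehicle C57BL/6J, 4.70 in exposed C57BL/6J and 5.18 in second-generation C57BL/6J, so that it was high in exposed FVB/N only among the 5 conditions. The FVB/N ratio was 721, with a 95% counting interval from 226 to 4265 (the exact Clopper-Pearson limits of the share that 1 condition takes of both counts). On the log2 scale it was 9.01, the fourth largest of 24318 genes. All intervals of this kind, here and below, cover counting error only and leave out the spread between mice. The difference of 1825 counts was larger than its model SD of 1591 by a small margin. The coefficient of variation under the model was 0.871 in exposed FVB/N, above that of 95.5% of genes with at least 10 counts there.

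Cst12, which encodes CRES3, had 0.614 counts in vehicle FVB/N and 299 in exposed FVB/N. Its C57BL/6J counts were 0.636, 0.990 and 0.811 in vehicle C57BL/6J, exposed C57BL/6J and second-generation C57BL/6J, all under the limit of detection. The log2 ratio in FVB/N was 7.54. The plain ratio of 487 rests on under 1 count with vehicle, and its counting interval ran from 60.8 to 145393. Cst11, which encodes CRES2, had 2.41 counts in vehicle FVB/N and 337 in exposed FVB/N. In C57BL/6J it had 1.43, 0.576 and 0.269 counts in the same order as above, again under the limit. Its log2 ratio was 6.63 and its ratio 139.8, with an interval from 42.5 to 885. The difference of 335 counts stood against a model SD of 195. Both genes thus had a high count in exposed FVB/N and none above 3 in any other condition. Their model coefficients of variation in exposed FVB/N were 0.580 for Cst11 and 0.574 for Cst12. These were high, above those of 92.3% and 92.2% of genes with at least 10 counts there.

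Cst8 was the one gene of the 4 that was well detected in other conditions too. It had 60.1 counts in vehicle C57BL/6J, 56.3 in exposed C57BL/6J, 24.6 in second-generation C57BL/6J, 3.87 in vehicle FVB/N and 94.99 in exposed FVB/N. Its log2 ratio in FVB/N was 4.30, a ratio of 24.5 with an interval from 9.15 to 94.6, and the difference of 91.1 counts stood against a model SD of 47.5. The model coefficient of variation of Cst8 in exposed FVB/N was 0.499, above that of 90.1% of genes with at least 10 counts there. The level that Cst8 reached was not far from that of C57BL/6J. Exposed FVB/N exceeded exposed C57BL/6J by 0.74 log2 units, and this difference of 38.6 counts lay within its model SD of 50.3. In exposed FVB/N, Cst8 made up 3.71% of the summed count of the 4 genes, where 9230104L09Rik took 71.4%, Cst11 13.2% and Cst12 11.7%. In vehicle C57BL/6J it made up 93.8%.

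Cst3 had 1767 counts in vehicle FVB/N and 1881 in exposed FVB/N, a ratio of 1.06 with an interval from 0.997 to 1.14. The difference of 113 counts was far within its model SD of 700.4 (log2 ratio 0.09). Scaling to equal totals turned the log2 ratio to -0.04, where the median of all genes moved to -0.13. Cst9 and Cst13 stayed under 10 counts in both FVB/N conditions and were not compared. Testatin (Cst9) had 4.35 and 0.525 counts with vehicle and DEHP, and Cst13 had 6.30 and 2.62, so that no rise was seen for either and a fall could not be followed below 3 counts.

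In C57BL/6J, 0 of the 2 cystatins with enough counts were higher or lower with prenatal DEHP, where 49 of 16825 genes were (0.291%). Cst3 was higher by 0.29 log2 units, a ratio of 1.23 (interval 1.13 to 1.33), and this difference of 230.5 counts lay within its model SD of 407. Cst8 differed by -0.09 log2 units, a ratio of 0.938 (interval 0.640 to 1.37) and also within its model SD. The other 5 genes had at most 4.70 counts in both conditions. The log2 ratio in FVB/N minus that in C57BL/6J was 8.05 for 9230104L09Rik, 7.26 for Cst11, 7.26 for Cst12 and 4.39 for Cst8, with model SDs of 1.93, 1.87, 1.82 and 1.22. For Cst3 it was -0.20 with a model SD of 0.754. Thus 4 of the 5 cystatins compared exceeded 2 log2 units in the upward direction, as did 0.997% of all genes (175 of 17556, or 141 higher and 65 lower in place of 175 and 40 with equal totals). Of the 4, only Cst8 reached 10 counts in a condition other than exposed FVB/N, so that the minimum count largely fixed this number. No sample-level test of this difference between strains was possible.

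**Figure D2:**
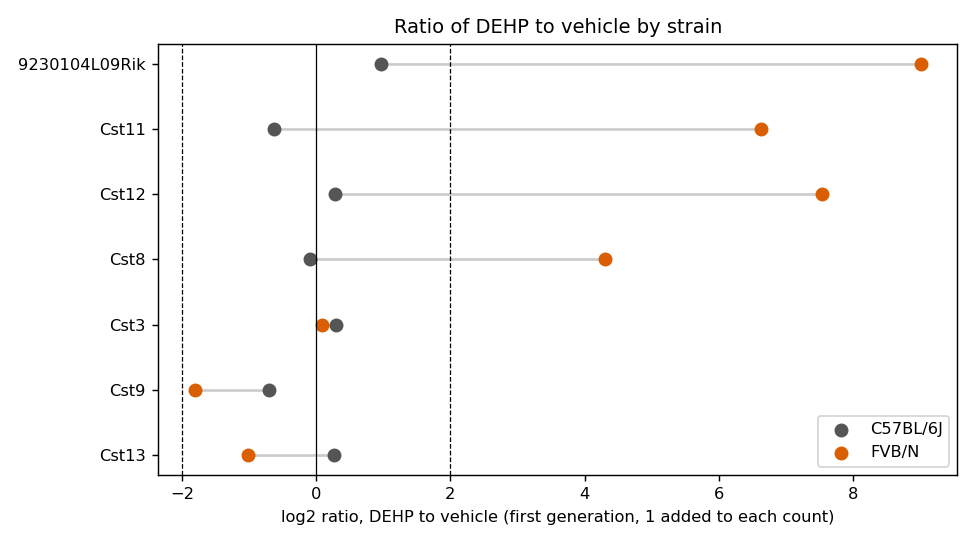
Log2 ratio of DEHP to vehicle in the first generation for each cystatin gene (horizontal axis), with C57BL/6J in grey and FVB/N in orange. Dashed lines mark 2 log2 units in either direction. 4 genes lie beyond the line in FVB/N, from 4.30 for Cst8 to 9.01 for 9230104L09Rik, and none does in C57BL/6J, while Cst9 and Cst13 rest on under 10 counts.

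The genes that were higher in exposed FVB/N did not form an unbroken stretch of the cluster. Cst11, Cst12 and Cst8 lie together at one end. They are separated from 9230104L09Rik by Cst13 and Cst9, both at low counts in all conditions. On its other side 9230104L09Rik is the neighbour of Cst3, which barely differed. Between Cst11 and Cst12 lies 8030411F24Rik, which had at most 0.564 counts in any condition. Within 250 kb beyond the outermost members, 4 further genes of the table were found. Cstl1, a cystatin-like gene of the testis, had 2.90 counts in vehicle FVB/N and 8.77 in exposed FVB/N, and it remained under 10 counts. Outside the cystatins, Nxt1, Gzf1 and Napb had log2 ratios of 0.03, -0.14 and -0.32 in FVB/N.

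**Figure D3:**
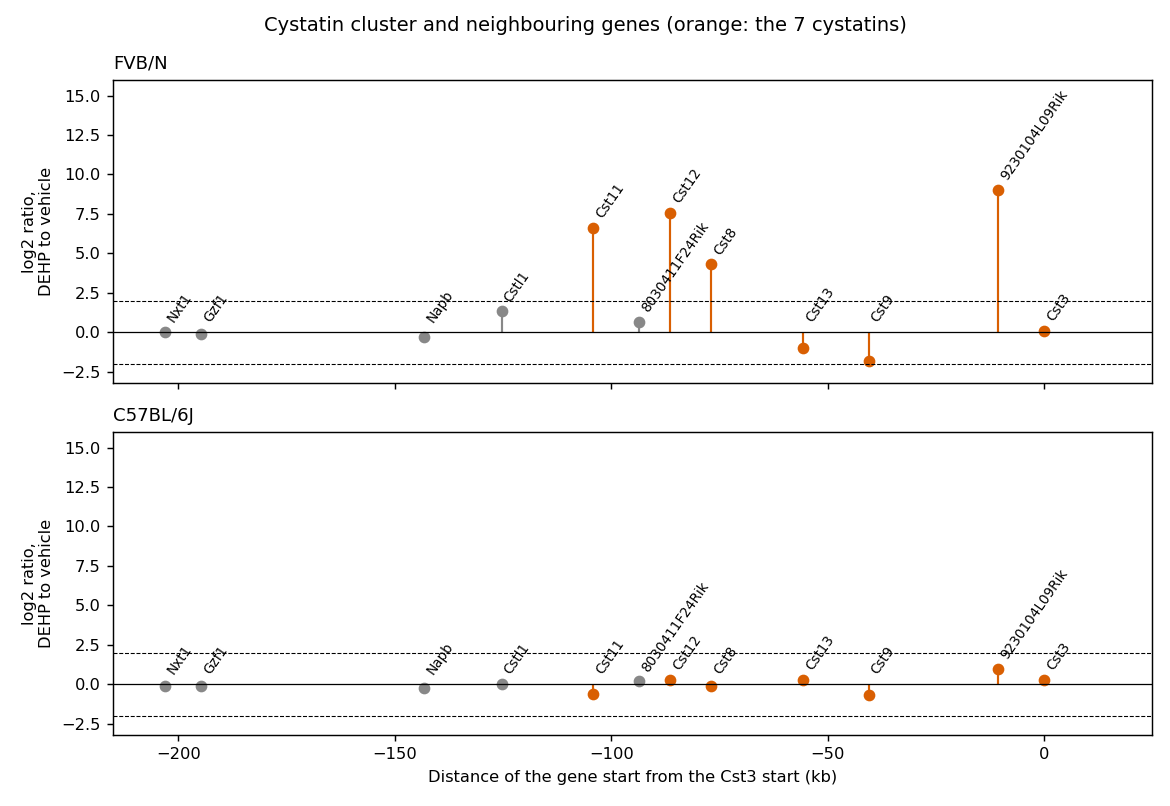
Log2 ratio of DEHP to vehicle (vertical axis) against the distance of each gene start from that of Cst3 in kb (horizontal axis), for FVB/N above and C57BL/6J below. The 7 cystatins are orange and the neighbouring genes of the table grey, and dashed lines mark 2 log2 units. In FVB/N, Cst11, Cst12, Cst8 and 9230104L09Rik stand at 6.63, 7.54, 4.30 and 9.01, with Cst13 and Cst9 below 0 between them.

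The initial segment and caput, the proximal parts of the epididymis, express the CRES genes together with lipocalins, defensins and Gpx5. A list of 23 such genes was read beside the cystatins. In exposed FVB/N, 16 of them were higher and 0 lower than in vehicle FVB/N, where 0.662% of all genes were higher, and the median of their log2 ratios was 5.68, against 0.00460 for all genes. Of the 23, 13 reached 10 counts in vehicle FVB/N, and the other 10, all among the 16, were compared only through their counts in exposed FVB/N. The paper had already named Lcn5, Lcn8, Lcn9, Gpx5, Spint4, Defb30 and Spag11b as RNAs that rose in these exposed FVB/N libraries. It had named the cystatin 9230104L09Rik, which is not in this list, with them. The number of higher genes in this list is therefore a description and no independent readout. Their summed count was 40689 with vehicle and 102778 with DEHP, and without Adam7, the most abundant of them, it was 3379 and 48856. Adam7 itself had 37310 and 53922 counts (log2 ratio 0.53), and Gpx5 alone had 71.4 and 24121. The 7 markers not counted as higher were Lcn2, Adam7, Rnase9, Rnase11, Rnase12, Crisp4 and Etv4, with log2 ratios from 0.09 (Rnase11) to 1.37 (Rnase9). The median model coefficient of variation of the 16 higher ones was 0.773 in exposed FVB/N. At or under 3 counts were 5 of the 23 in vehicle FVB/N and 0 in exposed FVB/N. The log2 ratio of 9230104L09Rik was exceeded by 2 of the 23, Lcn5 with 9.36 and Lcn8 with 9.10, whereas that of Cst8 was exceeded by 14. In C57BL/6J, as for the cystatins, 0 of 13 were higher or lower with DEHP, and the median was -0.21. This count is near the share over all genes (49 of 16825). A list of distal epididymis and vas deferens had 0 of 7 genes higher or lower in FVB/N with DEHP and a median of -0.12. Over all genes 112 of 16471 were higher or lower, so that 0 of 7 is near that share. Crisp1, the most abundant gene of this distal list, was not compared because its estimate failed in vehicle FVB/N. Of the blood markers 2 of 3 were higher in FVB/N with DEHP (median 2.33). These were the globin genes Hba-a2 (2.43) and Hbb-bs (2.33), while the leukocyte marker Ptprc was not higher (0.19). Of 6 macrophage markers 0 were higher, near the share over all genes. The part of such epididymal RNA in the cystatin values was not tested.

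The profiles nearest to those of the 3 cystatins with the largest ratios were also looked up among 11237 genes with at least 100 counts in a condition. Closeness was the distance between log2 counts centred on their mean over the 5 conditions, a description over 5 points that share their libraries. For Cst12 the nearest were Teddm1a (0.30), Gm4846 (0.57) and the lipocalin Lcn10 (0.61). For Cst11 they were the disintegrin Adam28 (0.61), the Kunitz-type inhibitor Spint5 (0.65) and the lipocalin Lcn6 (0.96). For 9230104L09Rik they were the lipocalin Lcn8 (0.84), Gm6792 (1.00) and the mucin Muc5b (1.12). All of these nearest genes, like the 3 cystatins, passed 100 counts only through exposed FVB/N. Their closeness was thus largely set by that condition. In the other conditions Cst11 and Cst12 were under the limit of detection, and shared regulation was not tested. Among themselves, Cst11 and Cst12 lay 1.31 apart and Cst12 and 9230104L09Rik 1.36, with 2.27 between Cst11 and 9230104L09Rik, while Cst8 lay 5.69 or more from each of the 3. The nearest to Cst3 were Dtx3 (0.07), Zfp619 (0.08) and Sema5a (0.08).

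Between strains without DEHP, Cst8 was lower in FVB/N, with 60.1 counts in vehicle C57BL/6J and 3.87 in vehicle FVB/N. The log2 ratio was -3.65, or 15.5-fold lower with an interval from 5.68 to 60.5. Cst8 was thus 1 of the 2 cystatins compared that was lower by 2 log2 units, in a comparison where 8.88% of all genes were (1518 of 17086). Second-generation C57BL/6J is, like vehicle FVB/N, not labelled as re-analysed, and the labels do not say whether these libraries were prepared together. Against it, vehicle FVB/N had a log2 ratio of -2.40, or 6.37-fold fewer counts with an interval from 2.16 to 25.9. In that comparison 2.5% of all genes were lower. With 10 counts added in place of 1, the log2 ratios were -2.34 and -1.32, so that the second of these was no longer counted as lower. The second comparison is between conditions that differ in exposure and generation as well as strain. Cst3 went the other way and was 1.73-fold higher in vehicle FVB/N than in vehicle C57BL/6J (interval 1.60 to 1.87). This was 0.79 log2 units, and the difference of 747 counts exceeded its model SD of 542.

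In the second generation, Cst8 was lower than in both first-generation C57BL/6J conditions without reaching 2 log2 units. Against vehicle C57BL/6J the log2 ratio was -1.25, or 2.44-fold lower with an interval from 1.503 to 4.07. Against exposed C57BL/6J it was -1.16, or 2.29-fold lower with an interval from 1.40 to 3.84. Both differences exceeded their model SDs of 20.5 and 19.3 counts. Neither of the 2 cystatins compared was therefore counted as higher or lower, where 4.19% and 3.64% of all genes were. In the order of its levels from vehicle FVB/N up, second-generation C57BL/6J followed, then exposed C57BL/6J and vehicle C57BL/6J close together, and exposed FVB/N on top.

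Cst8 is a germ cell gene as well as an epididymal one, and its values were set beside markers of both. The 10 markers of spermatids and sperm, among them the protamines, had summed counts of 92409 in vehicle C57BL/6J, 77226 in exposed C57BL/6J, 30942 in second-generation C57BL/6J, 7898 in vehicle FVB/N and 9341 in exposed FVB/N. All 10 were lower in vehicle FVB/N than in vehicle C57BL/6J, with a median of -3.27 log2 units, close to the -3.65 of Cst8. In second-generation C57BL/6J against vehicle C57BL/6J their median was -1.30, close to the -1.25 of Cst8, and 0 of the 10 passed 2 log2 units. Per 1000 counts of these markers, Cst8 had 0.650, 0.730, 0.796 and 0.490 counts in vehicle C57BL/6J, exposed C57BL/6J, second-generation C57BL/6J and vehicle FVB/N. In exposed FVB/N it had 10.2. The sperm markers had a median log2 ratio of 0.39 with DEHP in FVB/N, with 0 of 10 counted as higher. Over the 4 conditions other than exposed FVB/N, Cst8 and the summed sperm markers had the same order of levels. In exposed FVB/N Cst8 stood apart from them, and 16 of 23 proximal epididymal markers were higher there than in vehicle FVB/N. The value of Cst8 in vehicle FVB/N rests on 3.87 counts with a model SD of 2.65. The 4 conditions also span both sets of libraries, between which liver markers differed too (median -7.62 log2 units in vehicle FVB/N against vehicle C57BL/6J). The part of sperm RNA or of epididymal RNA in the Cst8 values was not tested.

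**Figure D4:**
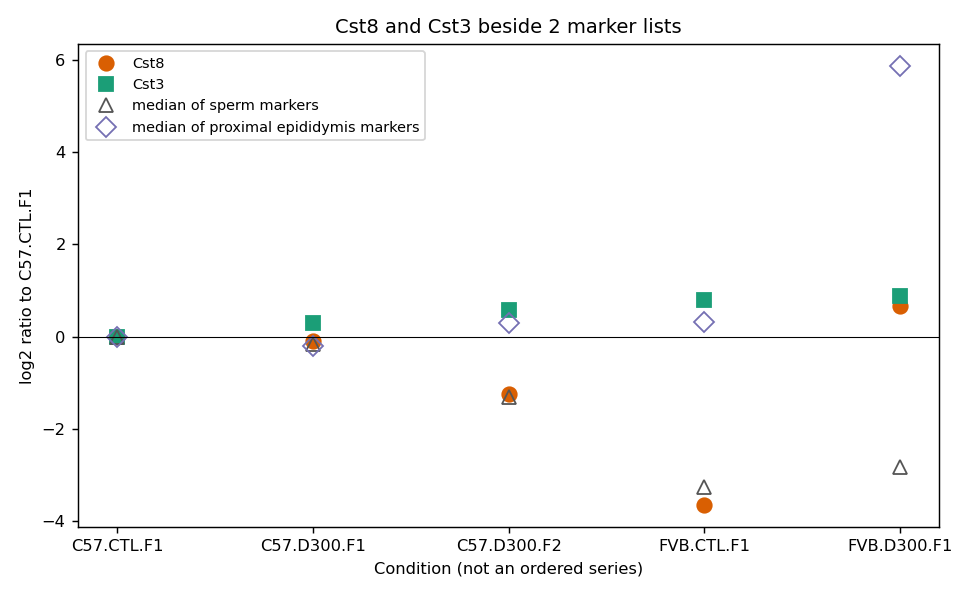
Log2 ratio to vehicle C57BL/6J (vertical axis) of Cst8, Cst3 and the medians of 10 sperm and 23 proximal epididymis markers in each condition (horizontal axis, without order). Cst8 lies near the sperm markers in second-generation C57BL/6J (-1.25 and -1.30) and vehicle FVB/N (-3.65 and -3.27) and apart from them in exposed FVB/N, and Cst3 stays between 0 and 0.88.

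The level of Cst3 differed in small steps between the conditions. It had 1021 counts in vehicle C57BL/6J, 1251 in exposed C57BL/6J, 1513 in second-generation C57BL/6J, 1767 in vehicle FVB/N and 1881 in exposed FVB/N. Each of these lay within the model SD of the difference from its neighbour in that order. Second-generation C57BL/6J exceeded vehicle C57BL/6J by 0.57 log2 units, a ratio of 1.48 (interval 1.37 to 1.61), and its difference of 492 counts stood against a model SD of 471. Exposed FVB/N exceeded exposed C57BL/6J by 0.59 log2 units, or 629 counts against a model SD of 602. In that same comparison of the exposed strains, 3 of the 5 cystatins compared were higher by 2 log2 units, namely 9230104L09Rik (8.33), Cst11 (7.74) and Cst12 (7.24), and 2.65% of all genes were higher. These 3 reached 10 counts only in exposed FVB/N, so that they had to differ, and their count is again a description.

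Cst9 had 1.37, 0.454, 3.26, 4.35 and 0.525 counts in vehicle C57BL/6J, exposed C57BL/6J, second-generation C57BL/6J, vehicle FVB/N and exposed FVB/N. Cst13 had 3.71, 4.67, 3.89, 6.30 and 2.62 in the same order. Both were thus near the limit of detection in every condition and under the minimum for a comparison. Between exposed and vehicle FVB/N, the difference in Cst9 was -3.82 counts with a model SD of 3.17. Of 8 Sertoli cell markers, 4 reached 10 counts in at least 1 of both C57BL/6J first-generation conditions, and 0 of the 3 compared in FVB/N were higher or lower with DEHP.

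Proteases of the lysosome were also read. Of 14 cathepsins and related proteases, most of them of the cysteine type that cystatins bind, 0 were higher or lower with DEHP in FVB/N (median 0.05), and 0 in C57BL/6J (median 0.06). Over all genes, 112 of 16471 in FVB/N and 49 of 16825 in C57BL/6J were higher or lower, so that 0 of 14 is near that share. Ctsl, which encodes cathepsin L, had 3413 counts in vehicle FVB/N and 3944 in exposed FVB/N. Ctsb, which encodes cathepsin B, had 2274 and 2481, and the legumain gene Lgmn, whose product cystatin C also inhibits, had 1923 and 1709. CRES proteins have been linked to proprotein convertases, and of 7 convertase genes compared, from a list of 9, 0 were higher or lower with DEHP in either strain. This is again near the share over all genes.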

How the data were processed

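Sperm RNA of 25 libraries in 5 conditions was extracted with TRIZOL, depleted with RiboZero and sequenced after TruSeq small RNA preparation. Per the authors' methods and processing notes (CASAVA 1.8.2, TopHat, Cufflinks, Cuffdiff), the RA3 adapter was clipped, reads were mapped to mm10 and the 5 libraries of a condition were quantified together. The deposited values are a signal, an estimated fragment count that Cuffdiff scaled between libraries and that is not divided by length. How the model variance was derived, the Cuffdiff options and the annotation release are not given in the sources used here. Summed counts were 6921688 to 8602900 per condition, which are totals of these scaled estimates and not numbers of reads. Of the table's value columns, 10 were used and 10 were not. The estimate failed for 71 genes in at least 1 condition, and these were treated as missing there.

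Here, log2 ratios with 1 added, model SDs, exact 95% counting intervals and counts per kb of merged GENCODE M21 exons were computed. A gene was compared from 10 counts and counted from 2 log2 units. All 7 cystatins are named, with the 3 nearest profiles of each cystatin that reached 100 counts, the genes of the cluster and genes of the fixed lists. The members and lists were chosen with earlier results of these data known. Alternatives were pseudocounts of 0.1 and 10, 3 scalings, no minimum or one of 100 counts, a threshold of 1, the model SD as a further limit, and estimates in all 5 conditions. Values under 3 counts set to 3 were added after seeing the data. The procedure was tested on simulated counts of genes with at least 100 counts and with counting error only. That simulation does not cover low counts or the spread between libraries. Calculations used pandas 2.3.3, numpy 2.4.6 and scipy 1.17.1 under Python 3.11.15, and plots used matplotlib 3.10.9. Protein sequences, single libraries and transcript variants were not analysed here.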

Additional observations from a re-analysis of the deposited data

How the results depend on the processing

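The 4 cystatins counted as higher with DEHP in FVB/N, and in the difference between strains, remained 4 under all alternatives tried, except that 3 remained at a minimum of 100 counts, which leaves out Cst8. Adding 10 counts lowered the log2 ratios in FVB/N to 7.20 for 9230104L09Rik, 4.87 for Cst12, 4.81 for Cst11 and 2.92 for Cst8. With a threshold of 1 log2 unit, 1 cystatin (Cst8) in place of 0 was lower in second-generation C57BL/6J than in vehicle C57BL/6J, and 1 in place of 0 than in exposed C57BL/6J. At a minimum of 100 counts, 0 in place of 1 was lower in vehicle FVB/N than in vehicle C57BL/6J, and 0 in place of 1 than in second-generation C57BL/6J, since Cst8 was then not compared. With a pseudocount of 10 the second of these was also 0. The 83 other counts of cystatins stayed within 1.5 times. Of the single-gene values 336 stayed close and 35 moved, with 0 reversals of a counted gene.

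Scaling to equal totals moved the median of all genes by over 0.1 log2 units, to 0.14 in C57BL/6J with DEHP, to 0.28 in second-generation C57BL/6J against vehicle C57BL/6J and to -0.25 in the difference between strains, and ratios of Cst3 are best read relative to it. The counts of all genes depended most on the threshold. At 1 log2 unit they were 457 in place of 112 for DEHP in FVB/N, 377 in place of 49 in C57BL/6J, 2441 in place of 717 and 1891 in place of 623 for second-generation C57BL/6J against vehicle C57BL/6J and exposed C57BL/6J, 4489 in place of 1764 and 5548 in place of 1792 between the strains without and with DEHP, 2677 in place of 544 for vehicle FVB/N against second-generation C57BL/6J, and 1295 in place of 215 for the difference. A pseudocount of 10 gave 31, 1100, 1073, 219 and 125, and a minimum of 100 counts 30, 1039, 1069, 242 and 126, in C57BL/6J with DEHP, both strain comparisons, vehicle FVB/N against second-generation C57BL/6J and the difference. A minimum of 100 counts gave 74 for DEHP in FVB/N, and the model SD as a further limit gave 29 in C57BL/6J. With equal totals, second-generation C57BL/6J had 175 higher and 539 lower genes against vehicle C57BL/6J, in place of 100 and 617.

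No paired analysis was possible because the table holds 1 value per condition. For the same reason no replicate was left out. Low counts limit Cst9 and Cst13 throughout, and Cst11, Cst12 and 9230104L09Rik outside exposed FVB/N.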

Other observations

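The wider cystatin superfamily was also read, in a list that includes Cstl1 and 8030411F24Rik, which lie beside or within the cluster. Of 20 further superfamily genes in the table, 0 of the 7 compared were higher or lower with DEHP in FVB/N (median -0.07), and 0 of 8 in C57BL/6J. Over all genes 112 of 16471 and 49 of 16825 were, so that 0 is near that share. Between sets of libraries, 5 of the 9 superfamily genes compared were lower in second-generation C57BL/6J than in vehicle C57BL/6J, where 617 of 17114 genes were lower. All 5 encode plasma proteins made by the liver. The fetuin gene Ahsg had 5042 counts in vehicle C57BL/6J, 5263 in exposed C57BL/6J, 159 in second-generation C57BL/6J, 46.3 in vehicle FVB/N and 25.3 in exposed FVB/N. The kininogen gene Kng1, the precursor of bradykinin, had 2115, 1936, 59.99, 17.95 and 14.2 counts in the same order, and the histidine-rich glycoprotein gene Hrg had 2251, 2600.3, 70.2, 25.5 and 7.07. Fetub departed from these in FVB/N. It had 1219 counts in vehicle C57BL/6J and 159 in second-generation C57BL/6J, but 462 in vehicle FVB/N and 522 in exposed FVB/N. The liver markers differed in the same comparisons, with 6 of 6 lower in second-generation C57BL/6J than in vehicle C57BL/6J, and their part in these values was not tested.

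The intracellular inhibitor cystatin B (Cstb) had between 108 and 148 counts in all 5 conditions. Cst6, known from skin, had between 21.9 and 36.3. The stefin genes Stfa1, Stfa2, Stfa2l1 and Stfa3 had at most 1.02 counts in any condition. Cstl1, which lies beside the cluster, had 20.6 counts in vehicle C57BL/6J, 20.5 in exposed C57BL/6J, 17.6 in second-generation C57BL/6J, 2.90 in vehicle FVB/N and 8.77 in exposed FVB/N. Its log2 ratio in vehicle FVB/N against vehicle C57BL/6J was -2.47. Per 1000 counts of sperm markers it had between 0.223 and 0.939 counts.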
